A study of Mus musculus with 12 samples.

Results

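The Nfat genes encode transcription factors, and their DNA methylation was followed across B cell fractions of mice that differed in how often the cells had divided in vivo. All CpGs that the deposited table assigned by symbol to Nfatc1, Nfatc2, Nfatc3, Nfatc4 or Nfat5 were taken, which gave 562 of 760348 CpGs covered by at least 10 reads in every library. Nfatc1 had 169 of them, Nfatc2 245, Nfatc3 52, Nfatc4 65 and Nfat5 31. The family was chosen from measured values of these same libraries, among them a gain of methylation in an Nfatc2 intron between undivided and CD138+ cells. The counts and levels of the members are therefore a description, and no p-value of a single member gene or CpG is printed. Counts of members under a p threshold belong to this description and are no test of the family.

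Naive splenic B cells (B220+ CD43-) were stained with CFSE or with CTV, dyes that dilute at each division, and were given to uMT mice, which lack mature B cells of their own. The hosts were then given the bacterial ligand lipopolysaccharide (LPS). Donors are C57/BL6J in the study's design, whereas the sample labels give the strain as B6.SJL-Ptprca Pepcb/BoyJ, female, 8 weeks of age, without saying whether this is the donor or the host. On day 3, 6 fractions were sorted from the spleen of each of 2 hosts, numbered 196 and 197, so every fraction has n = 2 and all 12 libraries share the transfer and the LPS. Div0 cells had not divided, Div1, Div3 and Div5 cells had divided 1, 3 and 5 times, and Div8neg and Div8pos cells had divided at least 8 times without and with CD138, which marks antibody-secreting cells. The last class has no upper limit on divisions, so CD138 and further divisions cannot be told apart. A level is an average over sorted cells, so a change within cells cannot be told apart from a change in which cells make up the fraction.

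NFAT proteins wait in the cytoplasm in a phosphorylated form. In lymphocytes, antigen receptor signals release calcium, calmodulin activates the phosphatase calcineurin, and dephosphorylated NFATc1 to NFATc4 enter the nucleus, where they bind DNA, often together with AP-1. NFATc1 and NFATc2 are the main members of mature B cells. NFAT5 responds to osmotic stress and has no calcineurin docking region.

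The start-site sequences of the family are shown because the start regions of most members stayed almost free of methylation in every fraction. RefSeq windows of build GRCm38.p6, from 250 bases before to 50 after a start, were found for 4 of the 5 genes, all but Nfatc1, and for each the window with the most CpGs is printed 5′ to 3′ with every CG in capitals.
Nfatc2 promoter (chr2:168601608-168601907, minus strand): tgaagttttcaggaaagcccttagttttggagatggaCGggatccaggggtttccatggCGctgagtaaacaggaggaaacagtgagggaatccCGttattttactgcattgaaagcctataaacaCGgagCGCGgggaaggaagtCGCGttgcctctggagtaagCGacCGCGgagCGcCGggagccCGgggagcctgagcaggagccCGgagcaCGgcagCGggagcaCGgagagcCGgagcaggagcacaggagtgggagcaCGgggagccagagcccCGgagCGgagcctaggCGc
Nfatc3 promoter (chr8:106059340-106059639, plus strand): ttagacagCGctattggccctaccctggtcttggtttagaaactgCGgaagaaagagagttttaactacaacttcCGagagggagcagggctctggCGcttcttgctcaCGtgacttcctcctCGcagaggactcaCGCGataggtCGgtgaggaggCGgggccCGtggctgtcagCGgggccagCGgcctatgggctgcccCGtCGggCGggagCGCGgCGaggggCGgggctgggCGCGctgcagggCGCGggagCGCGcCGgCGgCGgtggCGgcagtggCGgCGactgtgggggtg
Nfat5 promoter (chr8:107293220-107293519, plus strand): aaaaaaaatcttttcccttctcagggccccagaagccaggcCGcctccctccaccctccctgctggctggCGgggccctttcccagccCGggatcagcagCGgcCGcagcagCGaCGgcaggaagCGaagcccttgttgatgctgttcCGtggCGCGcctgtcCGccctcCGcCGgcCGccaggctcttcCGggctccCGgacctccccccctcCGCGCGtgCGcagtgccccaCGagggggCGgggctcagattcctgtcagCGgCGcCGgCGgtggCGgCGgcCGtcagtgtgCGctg
Nfatc4 promoter (chr14:55824545-55824844, plus strand): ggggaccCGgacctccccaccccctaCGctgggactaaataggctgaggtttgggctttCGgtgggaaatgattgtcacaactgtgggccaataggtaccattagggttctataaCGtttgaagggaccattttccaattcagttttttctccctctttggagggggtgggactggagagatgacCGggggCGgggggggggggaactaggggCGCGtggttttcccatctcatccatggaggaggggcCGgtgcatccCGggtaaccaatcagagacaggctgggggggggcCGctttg
These windows hold 23, 32, 31 and 11 CpGs in the order printed, where the median is 7 over 32851 RefSeq windows, of which 43.5% hold at least 10. The letters GGAAA, the core of the NFAT binding motif, or TTTCC on the other strand occur 3 times in the Nfatc2 window, 0 times in that of Nfatc3, 2 times in that of Nfat5 and 3 times in that of Nfatc4, and 61.3% of all windows hold at least 1. A match is only a match of letters. The methylation data are in mm9 coordinates, and the builds were not converted, so the printed CGs are not paired with measured CpGs.

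Measured CpGs in a window of the same length around an mm9 start were nearly free of methylation at Nfatc2 and Nfatc3 in all 6 fractions. Both genes have a further window that is not printed, and which window holds the measured start was not determined. The 4 CpGs of Nfatc2 had fraction means between 1.54% and 3.21%, and the 4 of Nfatc3 between 1.16% and 4.36%. Nfatc4, whose printed window holds the fewest CGs, was methylated at both of its annotated starts. The 2 CpGs at its first start had fraction means between 30.4% and 39.9%, and the 3 CpGs at its second start between 75.9% and 95.5%. No Nfat5 CpG was measured in this window.

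Reads over the tested CpGs numbered between 17969105 and 56775157 per library, and the median coverage of the Nfat CpGs was 20 to 49 reads in host 196 and 39 to 65 in host 197. Promoter CpGs were used to check the labelled cell type. They were measured for 4 of 7 B cell genes, which had 0% to 26.9% methylation at Div0, and for 3 of 7 T cell genes, which had 91.1% to 97.2%. The 3 other lineages had 1 measured gene each, Itgam (myeloid) at 96.0%, Ncr1 (NK cell) at 92.3% and Epor (erythroid) at 69.7%. Plasma cell genes Prdm1 and Xbp1 were at 5.59% and 1.86%, and Sdc1, which encodes CD138, had no measured promoter CpG. The promoter of Cd22 (2 CpGs) was at 26.9% in Div0, 25.1% in Div8neg and between 3.32% and 13.9% in the others. Its part in the Div8neg results was not tested.

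Nfat methylation held nearly level for 5 divisions and was lower after 8, most of all with CD138. Averaged over the 562 CpGs it was 64.4% ± 0.130 (Div0), 64.5% ± 0.178 (Div1), 64.5% ± 0.464 (Div3), 64.2% ± 0.432 (Div5), 60.8% ± 0.381 (Div8neg) and 57.0% ± 0.622 at Div8pos (mean ± SD, n = 2). The 2 Div8pos libraries, at 57.5% and 56.6%, lay below all others, and the 2 Div8neg libraries, at 61.1% and 60.6%, lay between them and the rest. Calls come from a quasi-binomial logistic model with Benjamini-Hochberg adjustment over all 760348 CpGs. A called CpG has an adjusted p under 0.05 and fraction means at least 20 percentage points apart. By this rule 52 Nfat CpGs were lower and 3 higher in Div8pos than in Div0, against 6.61% lower and 0.0271% higher of all CpGs. The members' shares were 9.25% and 0.534%. Of the 52, Nfatc1 held 27, Nfatc2 18, Nfatc4 6, Nfat5 1 and Nfatc3 0, and the 3 higher CpGs were all in Nfatc2. The values closest to the size limit were falls of 20.1 and 20.6 points inside it and of 19.8 and 19.4 points outside it.

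Leaving out single libraries changed the lower counts, in the family as over all CpGs, where 50284 were lower with every library in. Without Div0 of host 197 there were 22 lower CpGs (13 in Nfatc1, 7 in Nfatc2, 1 in Nfatc4, 1 in Nfat5) and 14345 over all CpGs. With Div8pos of host 197 left out there were 34 (22 in Nfatc1, 11 in Nfatc2, 0 in Nfatc4, 1 in Nfat5) and 33129 over all CpGs. The dispersion, which measures how far libraries of a fraction differ beyond counting error, was one shared value of 1.16 for all CpGs, and with the dispersion of each CpG taken alone 0 CpGs of the whole table, and so 0 Nfat CpGs, were called in each of the 6 comparisons. For Div8pos against Div0 the unadjusted p was then under 0.05 at 134 of the 562 Nfat CpGs and at 135573 of all 760348.

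The mean level of the 52 CpGs was 89.4% (Div0), 85.8% (Div1), 85.5% (Div3), 82.4% (Div5), 73.7% (Div8neg) and 57.3% (Div8pos), and 47 of them had at least 80% at Div0. All 52 were lower in both hosts. This, their high mean in Div0 and its difference from Div1 are partly set by the choice of these CpGs. Within genes lay 36 of them, 8 lay beyond the end of Nfatc2, 6 upstream of a gene and 2 in promoters, which the files define as 2500 bp before to 500 bp after a start. Of the 91 Nfat promoter CpGs, 79 were under 20% at Div0. Read against what could fall, 26 of the 103 Nfatc1 CpGs with at least 80% at Div0 were called lower (25.2%), 17 of 177 in Nfatc2 (9.60%), 3 of 22 in Nfatc4 (13.6%), 1 of 18 in Nfat5 (5.56%) and 0 of 13 in Nfatc3, beside 10.2% of all 397380 such CpGs.

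**Figure D1:**
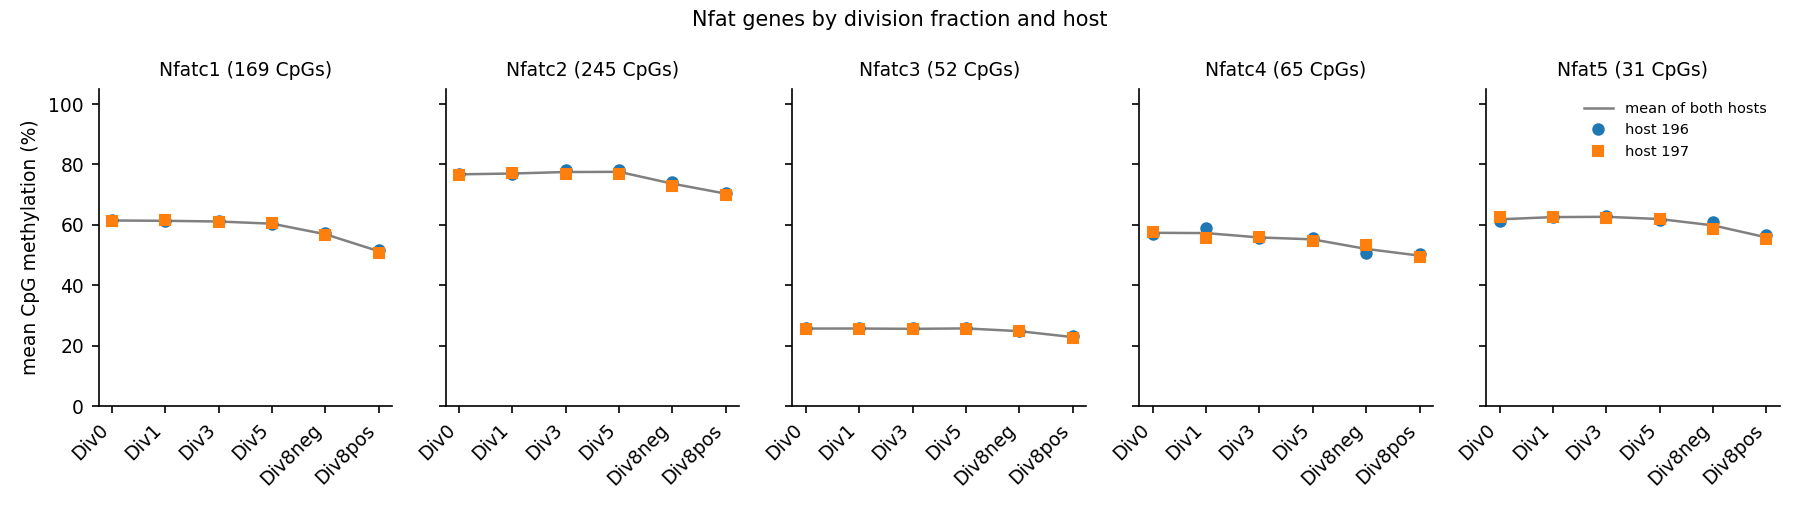
Mean methylation (%) over the measured CpGs of each Nfat gene in the 6 division fractions, with host 196 as circles, host 197 as squares and the mean of both as a line. Nfatc1 goes from 61.5% at Div0 to 51.3% at Div8pos, and Nfatc3 stays between 22.8% and 25.7%.

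Gene levels, the mean over all CpGs of a gene, were compared with limma over the 16816 genes with at least 5 CpGs, and called at an adjusted p under 0.05 and a difference of at least 10 points. Nfatc1 was the member called lower in Div8pos, as were 16.0% of all genes, with 0% called higher. It had 61.6% and 61.3% at Div0 in hosts 196 and 197, 57.2% and 56.6% (Div8neg), and 51.7% and 50.8% (Div8pos), a difference from Div0 of -10.2 points (SE 0.563). Without Div8pos of host 197 the difference was -9.74 points and was not called. Nfatc4 changed by -7.56 points (SE 1.18), Nfatc2 by -6.40 (SE 0.736), Nfat5 by -5.98 (SE 0.836) and Nfatc3 by -2.83 (SE 0.552), and none of these passed the size limit. The median over all genes was -5.80 points, against which Nfatc2 and Nfat5 differed by less than their SE and Nfatc3 changed less. Nfat5 was called lower with a coverage minimum of 20 reads (-10.4 points) and with reads summed over its CpGs (-11.8 points).

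No member was called at gene level in the other comparisons. There limma gave an unadjusted p under 0.05 for 4 of the 5 genes in Div8neg against Div0, 4 in Div8pos against Div8neg and 0 at Div5, Div3 and Div1. Over all 16816 genes, 8616 had an adjusted p under 0.05 in Div8neg against Div0, whatever the size of the difference. In Div8pos against Div8neg 10286 had. The adjusted limit is stricter than the unadjusted one used for the members, so the counts are not comparable. For Div8neg against Div0, where 1.34% of genes were lower and 0.0119% higher, the members differed by -4.57 (Nfatc1), -3.09 (Nfatc2), -0.860 (Nfatc3), -5.35 (Nfatc4) and -2.01 points (Nfat5). For Div8pos against Div8neg, with 1.94% of genes lower and 0.00595% higher, the differences were -5.63, -3.31, -1.97, -2.21 and -3.97 points in the same order. At Div5 they lay between -2.18 and 0.825 points from Div0, with 0.101% of genes lower and 0% higher. The 5 comparisons with Div0 share the Div0 libraries.

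Nfatc1, which encodes the factor NFATc1, lay on chromosome 18 (mm9), with CpGs measured from 80810682 to 80918110. It fell into unmethylated start regions and a methylated body. All 48 promoter CpGs were under 20% in Div0, and their mean lay between 1.70% and 2.52% in the 6 fractions. The 12 CpGs around the outer start at 80909810 stayed between 0.880% and 1.43%, and the 12 around the inner start at 80904912 between 0.974% and 2.85%. The 118 CpGs of the gene body went from 84.9% at Div0 to 83.4% (Div5), 78.5% (Div8neg) and 71.1% (Div8pos), and 24 of them were called lower. A lower CpG was held by 15 of 34 separate sites (CpGs at most 500 bp apart). Of the sites with at least 2 CpGs, 28 of 32 had a lower mean in Div8pos than in Div0, as had 40 of 42 in Nfatc2, 4 of 4 in Nfatc3, 5 of 7 in Nfatc4 and 6 of 6 in Nfat5. Shares of such sites over all genes were not counted, so these counts are not read as a trait of the family. Over all 760348 CpGs the median difference of Div8pos from Div0 was -3.73 points.

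**Figure D2:**
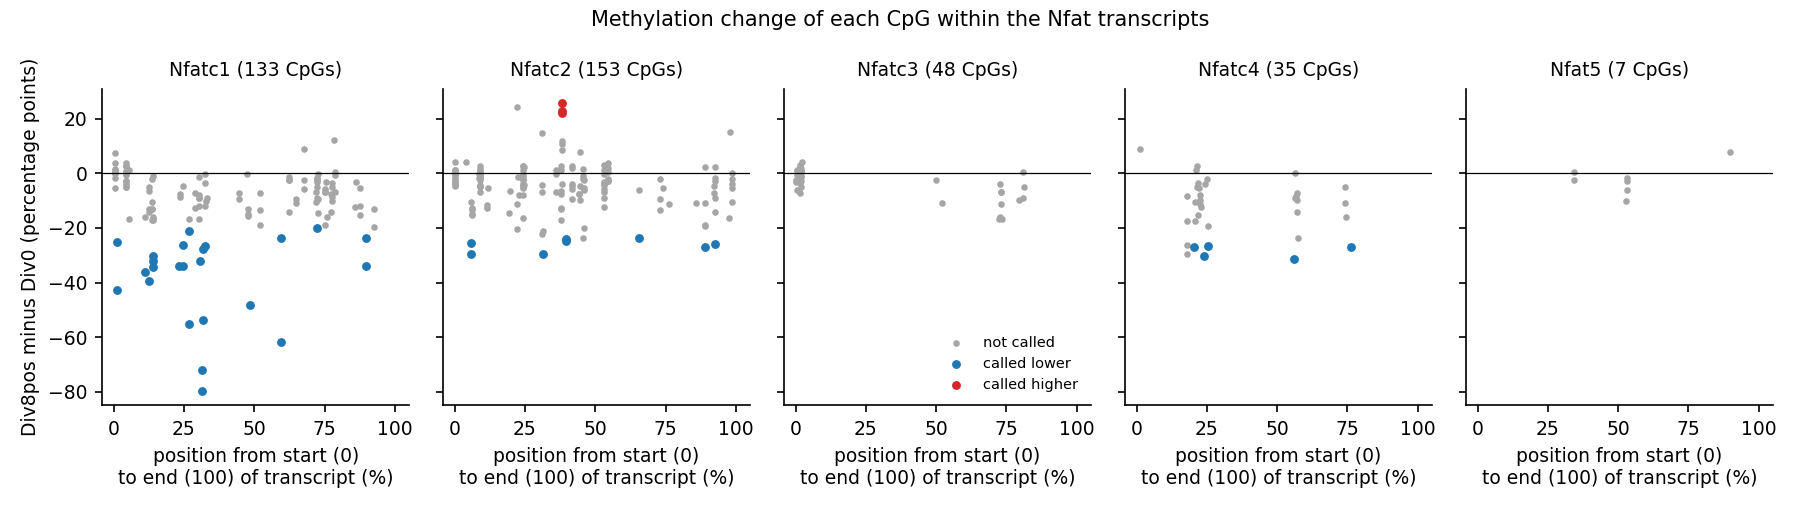
Each point is a CpG inside a transcript of an Nfat gene, at its relative position (%) from the start (0) to the end (100) of the nearest annotated transcript, against the methylation in Div8pos minus that in Div0 (percentage points). Blue points are called lower, red points higher and grey points neither. Losses beyond 40 points are seen in Nfatc1, and the red points are the 3 Nfatc2 CpGs at 38.2% of the gene.

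The deepest loss was a run of 4 intron CpGs (80875981 to 80876186), about 28.7 kb inside the inner start. Its mean level in hosts 196 and 197 was 91.1% and 88.8% (Div0), 90.8% and 88.0% (Div1), 81.9% and 85.5% (Div3), 70.1% and 71.2% (Div5), 61.4% and 63.0% (Div8neg), and 28.4% and 34.9% at Div8pos. From Div1 on, both libraries of each fraction lay below both of the fraction before it, whereas Div0 and Div1 overlapped. The CpG at 80876150 had the largest difference of the family. Its levels were 95.3% and 78.0% (Div0), 77.4% and 73.6% (Div1), 64.9% and 66.7% (Div3), 44.4% and 47.8% (Div5), 38.5% and 42.5% (Div8neg), and 6.38% and 7.53% at Div8pos. It was called lower at Div5, Div8neg and Div8pos against Div0 and in Div8pos against Div8neg, on 18 to 106 reads per library.

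The neighbours within the run differed in when they were lower. The CpG at 80876186 had 81.0% ± 6.73 (Div0), 54.9% ± 4.82 (Div5), 39.8% ± 3.26 (Div8neg) and 9.06% ± 2.34 at Div8pos. Its call in Div8neg was lost with hosts as a block and without any 1 of the 4 libraries. At 80875999, in contrast, it was still 88.0% ± 6.66 (Div5) and 82.2% ± 3.90 at Div8neg and then 41.3% ± 5.42 (Div8pos), where it was called lower against Div8neg, though not without Div8neg of host 197. A further CpG at 80875973, measured only in the authors' pooled table, stood at 98.3% at Div0 (59 reads, 95% Wilson interval 91.0% to 99.7%) and 71.9% at Div8pos (57 reads, 59.2% to 81.9%).

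Other Nfatc1 CpGs were lower mainly in Div8pos. The CpG at 80846071, in sequence annotated as exon, intron and 3′ UTR of different transcripts, had 100% and 98.2% (Div0), 97.3% and 97.8% (Div5), 84.2% and 86.2% (Div8neg), and 45.5% and 29.1% at Div8pos. The intron CpG at 80858138 went from 94.0% ± 0.379 (Div0) and 88.1% ± 3.37 at Div8neg to 45.7% ± 3.20 at Div8pos. Both were called lower in Div8pos against Div8neg, and no library of one fraction reached into the range of the other. The call of 80858138 against Div8neg was lost without Div8pos of host 197 or either Div8neg library. Other CpGs had already lost most by Div8neg: at 80881195, in an intron, the level (called lower in Div8neg, but not without Div8neg of host 197) was 95.5% ± 6.43 (Div0), 50.7% ± 5.42 (Div8neg) and 40.2% ± 3.79 at Div8pos.

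Losses of Nfatc1 also came as runs in an exon and before the gene. The exon run of 3 CpGs (80894789 to 80894849) had 96.5% and 92.0% (Div0), 79.4% and 73.7% (Div8neg), and 60.8% and 63.2% at Div8pos. The run of 3 CpGs 7.97 to 8.30 kb upstream of the outer start (80917780 to 80918110) had 95.3% and 91.1% (Div0), 74.3% and 82.1% (Div8neg), and 65.4% and 61.0% at Div8pos. In both runs the fractions ranked Div0, Div8neg, Div8pos from high to low with no overlap of hosts. Just beyond the upstream run, the CpG at 80918124 of the authors' pooled table had 91.9% at Div0 (37 reads, 78.7% to 97.2%), 64.5% at Div8neg (31 reads) and 25% at Div8pos (48 reads, 14.9% to 38.8%). The pair of intron CpGs at 80908687 and 80908728, about 1.08 to 1.12 kb inside the outer start and next to sequence that stayed unmethylated, went from 76.1% ± 6.59 at Div0 to 42.0% ± 11.2 at Div8pos.

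**Figure D3:**
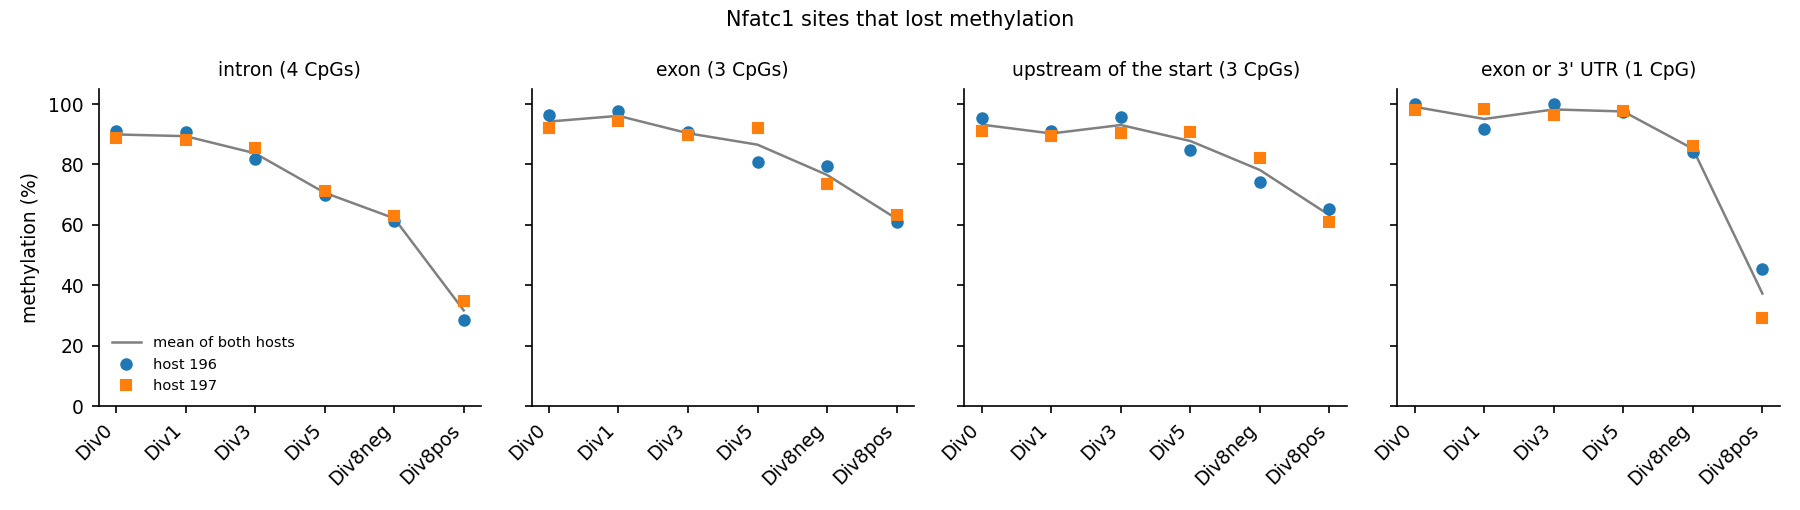
Methylation (%) by fraction at 4 Nfatc1 sites, host 196 as circles, host 197 as squares, the mean of both as a line. The intron run declines from Div3 on (83.7% mean) and reaches 31.7% at Div8pos, whereas the single CpG on the right stays at or above 84.2% in every library until Div8neg and falls to 37.3% on average at Div8pos.

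Nfatc2 encodes the factor NFATc2, which is held ready in resting lymphocytes. Its 245 CpGs on chromosome 2 (168199495 to 168443392) include 80 that lie 1.37 to 102 kb beyond its end and carry its symbol as the nearest gene. The gene level was 76.7% ± 0.373 (Div0), 77.6% ± 0.961 (Div5), 73.7% ± 0.879 (Div8neg) and 70.3% ± 0.505 at Div8pos. The 18 lower CpGs lay at 15 sites, with 8 CpGs in the body, 8 beyond the end and 2 upstream, and none formed a run of 3. The largest losses were smaller than those of Nfatc1. In introns, 168387962 went from 67.8% ± 2.52 at Div0 to 38.2% ± 2.57 (Div8pos) and 168419971 from 97.2% ± 3.93 to 67.8% ± 1.59, and beyond the end 168252106 went from 86.4% ± 9.09 to 56.2% ± 8.84. The calls of 168387962 and 168252106 were lost without Div0 or Div8pos of host 197, and that of 168387962 also without Div8pos of host 196. A CpG in the last exon (168303721, 3′ UTR) was called lower in Div8neg alone (not without Div8neg of host 197 or either Div0 library), at 99.0% ± 1.39 in Div0, 77.1% ± 2.95 in Div8neg and 88.5% ± 2.96 in Div8pos.

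The 3 higher CpGs of the family were neighbours in an Nfatc2 intron (168379267 to 168379275). They share their reads and so are not 3 separate observations. Their mean in hosts 196 and 197 was 46.3% and 50.2% (Div0), 57.4% and 69.8% (Div1), 73.4% and 64.5% (Div3), 74.2% and 76.2% (Div5), 59.6% and 56.2% (Div8neg), and 75.8% and 67.8% at Div8pos. Every divided library lay above both Div0 libraries, and Div8neg lay below Div5 and Div8pos in both hosts. The middle CpG, 168379271, was also called higher at Div5, with 58.3% and 53.7% (Div0) and 80.6% and 87.9% at Div5. The number of higher CpGs in Div8pos was 0 when Div8pos of host 196 or Div0 of host 197 was left out, and 1 when Div8pos of host 197 or Div0 of host 196 was.

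The sequence beside this gain did not move as a block. In the authors' pooled table, a CpG before it (168379113) had 41.2% at Div0 (17 reads, 21.6% to 64.0%) and 84.6% at Div8pos (13 reads, 57.8% to 95.7%). The 4 CpGs between it and the gain (168379153 to 168379227) went from 35.3% to 28.6%, 33.3% to 25%, 42.9% to 51.7% and 71.4% to 55.2%, all within overlapping intervals on 17 to 29 reads. In the same table the Nfatc2 CpG at 168326333 had 4.76% at Div0 (21 reads, 0.846% to 22.7%), 54.8% (Div8neg) and 57.6% at Div8pos (33 reads, 40.8% to 72.8%). This CpG was singled out after its values were seen and has no replicate check.

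Another Nfatc2 CpG was highest in Div8neg. At 168265684, 36.2 kb beyond the gene end, the level in hosts 196 and 197 was 19.2% and 17.2% (Div0), 19.4% and 16.5% (Div1), 35.5% and 33.7% (Div3), 39.4% and 16.2% (Div5), 51.9% and 49.1% (Div8neg), and 26.1% and 13.3% at Div8pos. It was called higher in Div8neg than in Div0 and lower in Div8pos than in Div8neg. The 2 Div8neg libraries were the highest of the 12, and the hosts differed widely at Div5. The call against Div0 was lost without Div8neg or Div0 of host 197, and that against Div8neg without Div8pos of host 197 or either Div8neg library.

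**Figure D4:**
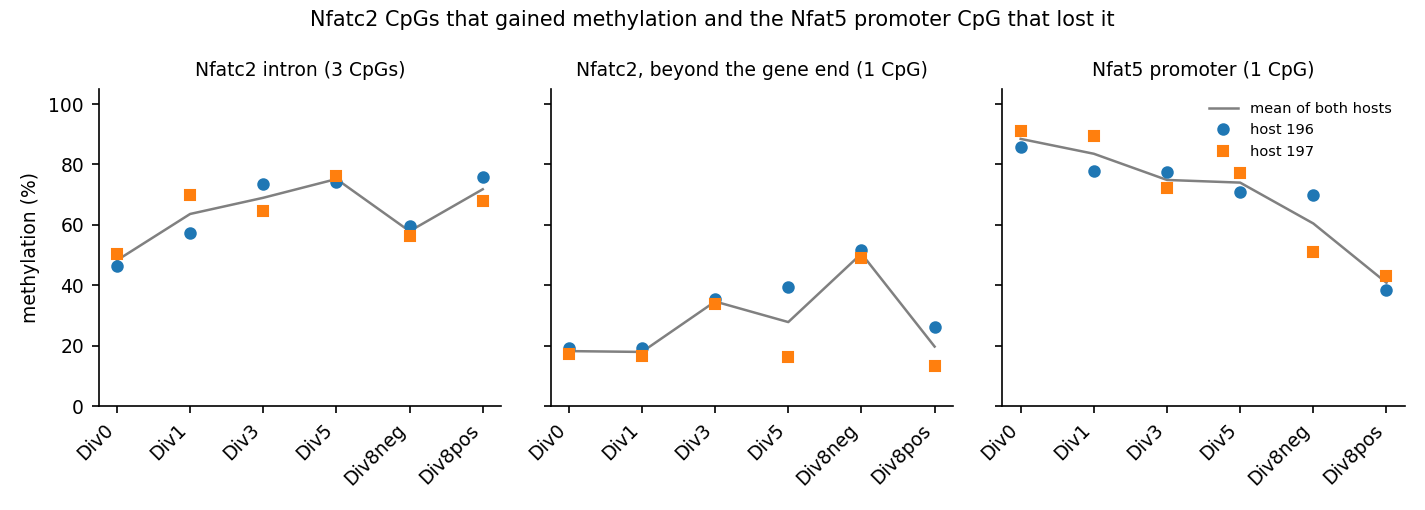
Methylation (%) by fraction at the 3 neighbouring Nfatc2 intron CpGs, at the Nfatc2 CpG 36.2 kb beyond the gene end, and at the Nfat5 promoter CpG, with hosts as circles (196) and squares (197) and their mean as a line. The intron CpGs go from 48.3% to 71.8% on average, the distant CpG peaks at 50.5% in Div8neg, and the Nfat5 CpG declines from 88.5% to 40.8%.

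Nfat5 encodes the osmotic stress factor. Its 31 CpGs on chromosome 8 (109786811 to 109907767) held 1 lower CpG, and it was in the promoter, about 1.03 kb before the start (109816339). Its level in hosts 196 and 197 was 85.7% and 91.2% (Div0), 77.8% and 89.3% (Div1), 77.4% and 72.3% (Div3), 70.7% and 77.3% (Div5), 70.0% and 50.9% (Div8neg), and 38.5% and 43.2% at Div8pos. The Div8pos libraries were the lowest, and the CpG was called lower in Div8neg too, though not without Div0 or Div8neg of host 197. Of the 12 promoter CpGs, 10 were under 20% at Div0. CpGs of the authors' pooled table nearby also had lower values in Div8pos, with 41.2% at Div0 (51 reads, 28.8% to 54.8%) and 6.78% at Div8pos (59 reads, 2.67% to 16.2%) at 109816628, and 89.0% (82 reads, 80.4% to 94.1%) and 79.4% (63 reads, 67.8% to 87.5%) at 109816328.

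Nfatc4, whose product is best known outside lymphocytes, had 65 CpGs on chromosome 14 (56433169 to 56450612), of which 31 were between 20% and 80% in Div0, a larger share (47.7%) than in the other members (0% to 12.7%). Lower CpGs numbered 6, with 0 left when Div8pos of host 197 was dropped, 1 when Div0 of host 197 was and 4 when Div0 of host 196 was. An exon stretch (56445516 to 56445962) held 3 of them among 18 measured CpGs, whose mean was 62.4% ± 1.36 (Div0), 48.9% ± 0.965 (Div8neg) and 51.1% ± 0.708 at Div8pos. Its CpG at 56445813 went from 76.1% ± 5.50 to 45.7% ± 0.783. In a promoter of the inner start, 56448759 went from 93.4% ± 3.01 to 62.2% ± 6.26, and the intron CpG 56450612, whose call was also lost without Div8pos of host 196, from 73.5% ± 7.45 to 46.4% ± 1.35. No Nfatc4 CpG was called in another comparison.

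Nfatc3, which encodes a member found in many tissues, had the smallest mean difference of the 5 genes. Of its 52 CpGs on chromosome 8 (108582611 to 108640938), 39 were under 20% in Div0, and in no comparison was a CpG called. For Div8pos against Div0, 11 had an unadjusted p under 0.05 in the logistic model, 10 of them lower, and edgeR called 0. No count over all CpGs at this unadjusted p is given, so the 11 are not read as a trait of Nfatc3. Without Div8pos of host 196, 1 was called lower. The 13 CpGs with at least 80% at Div0 had a mean of 97.0% (Div0) and 88.2% at Div8pos. In the authors' pooled table the Nfatc3 CpG 108639852, singled out after its values were seen, had 98.7% at Div0 (77 reads, 93.0% to 99.8%), 88.9% (Div8neg) and 57.8% at Div8pos (90 reads, 47.5% to 67.5%).

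Calls in the remaining comparisons were few. In Div8neg against Div0, 8 Nfat CpGs were lower (6 in Nfatc1, 1 in Nfatc2, 1 in Nfat5) and 1 was higher, beside 0.781% and 0.0397% of all CpGs. The shares of the family were 1.42% and 0.178%. The lower count was 2 when Div8neg or Div0 of host 197 was left out and 5 when Div0 of host 196 was. In Div8pos against Div8neg, 6 were lower (5 in Nfatc1, 1 in Nfatc2) and 0 higher, beside 0.636% and 0.00697%. Here the lower count was 3 without Div8pos of host 197, 3 without Div8neg of host 196 and 2 without Div8neg of host 197. The unadjusted p was under 0.05 at 79 Nfat CpGs in that comparison, 71 of them lower, and edgeR also called 0 higher. No count over all CpGs at this unadjusted p is given, so the number is not read as a trait of the family.

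Earlier fractions gave 1 call in each direction or none. In Div5 against Div0, 1 CpG was lower (Nfatc1 80876150) and 1 higher (Nfatc2 168379271), beside 0.123% and 0.00552% of all CpGs. The lower call was lost without Div5 of host 197 or Div0 of host 196, and the higher call without Div5 or Div0 of host 197. In Div3 against Div0 none was called, beside 0.027% lower and 0.00118% higher of all CpGs, and the logistic model gave an unadjusted p under 0.05 at 46 Nfat CpGs, 20 of them lower. In Div1 against Div0 none was called either, as for 0% of all CpGs, with 33 Nfat CpGs at an unadjusted p under 0.05. edgeR called 0 in both. The unadjusted counts have no count over all CpGs beside them and are not read as a trait of the family.

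CpGs outside the replicated table add further positions of the genes from the same libraries, and so are no independent check. The authors' pooled table, in which the reads of both hosts are summed per fraction, holds 569 further Nfat CpGs with at least 10 reads in each fraction. The Div0 and Div8pos means were 60.8% and 49.7% over 138 such CpGs in Nfatc1, 74.4% and 66.9% over 246 in Nfatc2, 39.5% and 34.0% over 45 in Nfatc3, 27.2% and 24.3% over 62 in Nfatc4, and 30.01% and 25.6% over 78 in Nfat5. The differences were -11.1, -7.48, -5.51, -2.87 and -4.40 points, and Nfatc1 again had the largest of the 5. A fall of at least 20 points was seen at 34 of the 138 in Nfatc1, 29 of the 246 in Nfatc2 and 5 of the 45 in Nfatc3. It was seen at 4 of the 62 in Nfatc4 and 7 of the 78 in Nfat5. A rise of that size was seen at 1, 5, 0, 4 and 0 CpGs in the same order. The share over all pooled CpGs was not counted, so these counts are not read as a trait of the family. These values have no replicates, and the deeper host 197 weighs more in them.

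Genes that act with NFAT were followed at gene level by role. The list was chosen with earlier results of these data known, and only its called genes are named, so their p-values are a description. Of 52 listed, 47 were tested and 6 were called lower in Div8pos (12.8%, beside 16.0% of all genes), with 0 higher. Their median difference was -5.22 points, against -5.80 over all genes. In Div8neg 2 were lower (1 without Div8neg of host 196 or Div0 of host 197), and in Div8pos against Div8neg 1 was (2 without Div8pos of host 196, 3 without Div8neg of host 197). Without Div8pos of host 196, 9 were lower in Div8pos. Calcium entry had 1 of 10 lower. It was Orai2, a subunit of store-operated calcium channels, which went from 96.8% ± 0.152 at Div0 to 82.2% ± 0.587 at Div8pos (limma adjusted p = 9.30e-06). Among calmodulin and calcineurin genes 1 of 7 was lower, Ppp3cc, a catalytic subunit of calcineurin, which went from 46.5% ± 0.802 to 36.2% ± 3.41 in Div8neg (limma adjusted p = 0.00111) and to 31.7% ± 0.914 in Div8pos (limma adjusted p = 1.72e-05). Its Div8neg difference was -10.3 points, and -7.92 without Div8neg of host 196 and -9.77 without Div0 of host 197, where it was not called. With reads summed over its CpGs it was called in neither (-10.2 and -13.2 points).

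Of inhibitors and scaffolds 1 of 7 was lower, Homer2, a scaffold that competes with calcineurin for NFAT, which went from 92.0% ± 1.10 to 80.05% ± 0.194 (limma adjusted p = 2.54e-06). Among the 7 kinases that drive NFAT out of the nucleus 0 were called in Div8pos by limma, with 5 lower at an unadjusted p under 0.05 and a median difference of -4.60 points. Of all 16816 genes, 14094 had an adjusted p under 0.05 in Div8pos against Div0, whatever the size of the difference. This limit is stricter than the unadjusted one used for the kinases, so the counts are not comparable. Among nuclear partners 2 of 11 were lower. Batf, an AP-1 factor, went from 72.9% ± 2.0 at Div0 to 61.4% ± 5.22 (Div8neg) and 52.4% ± 2.46 at Div8pos (limma adjusted p = 0.00454 and 4.33e-05), with no call in Div8neg without Div8neg of host 197. Irf4, a factor needed for plasma cells, went from 21.1% ± 1.41 to 9.05% ± 0.317 in Div8pos (limma adjusted p = 5.63e-06) and was the 1 gene of the list that was lower in Div8pos than in Div8neg, where it had 19.4% ± 0.198 (limma adjusted p = 0.000173). That call was lost with summed reads (-8.78 points). Of 5 tested target genes 1 was lower, Il2, a T cell cytokine gene, which went from 96.1% ± 0.330 to 84.2% ± 2.07 (limma adjusted p = 9.95e-05).

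The genes closest to each member in their path were found among 11229 genes with at least 20 CpGs, by the root mean square difference of the change from Div0 over the 10 divided libraries, each against Div0 of its own host. For Nfatc1 they were Arhgef10l, A930011G23Rik and Rgs3, at 0.449 to 0.480 points, where the median gene was 2.66 points away. For Nfatc2 they were Ccdc12, Ppard and Dnah10 (0.395 to 0.551 points), for Nfatc3 Pip5k1a, Qsox2 and Phospho1 (0.192 to 0.259), for Nfatc4 Vmn2r104, Lrfn2 and Agtrap (0.746 to 0.809), and for Nfat5 Jph3, Ptk2 and Vapb (0.421 to 0.563). The change of Nfatc1 in Div8pos, -10.2 points, stood beside -9.43, -9.72 and -10.02 points in its neighbours. This closeness is set by the choice of the neighbours, which used the Div8pos libraries too.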

How the data were processed

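Reduced representation bisulfite libraries of 12 samples (6 fractions, 2 hosts) had been made with MspI and TaqI digestion, bisulfite conversion and PCR, per the labels' protocols. The submitters' processing notes name Bismark, Bowtie2 and the build mm9. Versions: not given in the sources used here. Deposited tables give methylated and unmethylated read counts per CpG, with both strands joined, and the same level as a fraction, per the file headers. One deposited table holds CpGs with at least 10 reads in each sample, and the other, used only where named, CpGs with at least 10 reads per fraction with the hosts pooled by the authors. Symbols, classes and distances are those of the files and belong to the nearest gene.

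The members, the pathway and marker lists and the rule for named CpGs were chosen with earlier results of these data known. The rule named, per gene and Div8 comparison, up to 3 called CpGs in each direction with the largest difference, runs of at least 3 called CpGs at most 500 bp apart, and CpGs called at Div5, Div3 or Div1. For the CpG tests, methylated and unmethylated reads were fitted by quasi-binomial logistic regression on the fraction, with 12 samples in every fit. Moderation by squeezeVar (limma 3.58.1) gave an infinite prior, and so a single dispersion of 1.16. Gene levels were tested with limma, and a gene's CpGs were all those with its symbol. edgeR 4.0.16, run as an alternative, used one dispersion of 0.0121 estimated from 20000 CpGs. Both tests were run on simulated data in which CpGs had counting error only and genes had a common spread. Such data cannot test the use of a shared dispersion. Per the labels, libraries that share a host number are from 1 animal and so are paired. Host differences in 83552 CpGs correlated between fractions at -0.00522 to 0.0121 over 15 pairs. PCR reads carry no molecular identifiers, so intervals cover counting error only. Gene-level p-values measure the spread between 2 hosts per fraction, and CpG p-values rest on the dispersion shared by all CpGs, not on the spread of each.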

Additional observations from a re-analysis of the deposited data

How the results depend on the processing

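Of 693 recomputed values for 85 results, 571 were classed as the same, 113 as weaker, 9 as stronger and 0 as reversed. For single genes and CpGs, the same means that direction and side of the threshold were kept. For counts of called CpGs it means an equal or similar number, so counts that stayed at 0 are among the 571. Such a count cannot be classed as reversed. With the hosts as a replicate block 49 Nfat CpGs were lower in Div8pos and 7 in Div8neg than in Div0, and 5 in Div8pos than in Div8neg, in place of 52, 8 and 6. The block changed no other count and no gene call, and among the named CpGs it ended the Div8neg call of Nfatc1 80876186. edgeR gave 53, 8 and 6, with a dispersion that is also shared by all CpGs. With the dispersion of each CpG alone (not below 1) 0 were lower or higher in every comparison. A coverage minimum of 20 reads left 176 of the 562 CpGs, and 11, 1 and 2 were lower in these 3 comparisons and 0 at Div5. The 11 and the 1 were all the called CpGs that had this coverage. Over all CpGs 12210 of the 246502 left were lower in Div8pos against Div0. A size limit of 10 points gave 104 lower CpGs in Div8pos, and 111216 over all CpGs. Leaving out 1 library gave 22 to 51 lower and 0 to 1 higher CpGs in Div8pos against Div0, 2 to 7 lower and 0 to 1 higher in Div8neg against Div0, 2 to 7 lower and 0 to 1 higher in Div8pos against Div8neg, and 0 to 1 of each at Div5. The cause of these changes was not tested beyond the number of CpGs left. At gene level 0 to 1 members were lower in Div8pos without 1 library, and 2 with a coverage minimum of 20 reads or with reads summed over CpGs, when Nfat5 was lower as well (-10.4 and -11.8 points). Alternatives for the pathway genes were added after seeing the data. In Div8pos against Div0, 10 were lower with summed reads and 6 to 9 without 1 library. In Div8neg, 0 were lower with 20 reads and 1 to 2 without 1 library, and in Div8pos against Div8neg 0 with 20 reads or summed reads and 1 to 3 without 1 library.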
